A study of Mus musculus with 54 samples.

Results

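The genes described here are 29 genes of cholesterol synthesis and sterol control, chosen by gene name from the deposited table of 55487 genes. All 29 were in the table, and all 29 passed the filter on low values that left 12742 genes for testing. They fall into 4 roles: 8 enzymes from acetyl-CoA through mevalonate to farnesyl and geranylgeranyl diphosphate, 11 enzymes from squalene to cholesterol, 4 genes of SREBP2 control, and 6 genes of sterol transport and LXR.

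RNA was measured in early proximal tubules that stained for SGLT2, the main glucose transporter of this segment, cut by laser from kidneys of male DBA mice aged 14 weeks. Each sample pooled 70 to 80 tubules. Non-diabetic mice (Ins2+/+) and diabetic Akita mice (Ins2 Akita/+, an insulin gene mutation that leaves the animal short of insulin) carried either wild-type Sglt1 (Sglt1+/+) or its knockout (Sglt1-/-). Sglt1, encoded by Slc5a1, is another glucose transporter of the proximal tubule. For 2 weeks mice of all 4 genotypes received vehicle or the SGLT2 inhibitor dapagliflozin at 10 mg/kg diet, and semaglutide, which activates the GLP-1 receptor, was injected under the skin of some Akita wild-type mice at a daily 3 nmol/kg. The table held 48 of 54 labelled samples. Among the non-diabetic samples, 5 with and 5 without Sglt1 received vehicle, and 4 with and 6 without it dapagliflozin. Among the Akita samples, 6 with and 6 without Sglt1 received vehicle, 5 with and 6 without it dapagliflozin, and 5 with it semaglutide. No label links a sample to an animal, so the p-values rest on the spread among samples alone, and that spread may be technical.

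Cells make cholesterol from acetyl-CoA through mevalonate, farnesyl diphosphate and squalene. When sterols in the endoplasmic reticulum are low, SCAP carries the membrane-bound factor SREBP2 to the Golgi, where it is cut, and its free part enters the nucleus and turns on genes of the pathway. INSIG proteins hold SCAP back when sterols are plentiful, and the LXR receptors, which respond to oxysterols, turn on genes that export cholesterol. The early proximal tubule also takes up sterol-carrying proteins from the filtrate through megalin and cubilin.

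Stretches just before the gene start of 4 genes are printed because these genes had the largest differences between the vehicle and dapagliflozin groups described below. They are read 5′ to 3′ on the gene's own strand, from RefSeq promoter windows on GRCm38.p6, and end before the annotated transcript. Capitals mark the letters of 3 searched motifs on either strand: the sterol regulatory element TCACNCCAC, CCAAT, and the GC box GGGCGG. The stretches lie at chr13:119690101-119690350 on the + strand for Hmgcs1, chrX:72918271-72918520 on the + strand for Nsdhl, chr5:4104747-4104947 on the - strand for Cyp51, and chr5:28071162-28071362 on the + strand for Insig1.
Hmgcs1: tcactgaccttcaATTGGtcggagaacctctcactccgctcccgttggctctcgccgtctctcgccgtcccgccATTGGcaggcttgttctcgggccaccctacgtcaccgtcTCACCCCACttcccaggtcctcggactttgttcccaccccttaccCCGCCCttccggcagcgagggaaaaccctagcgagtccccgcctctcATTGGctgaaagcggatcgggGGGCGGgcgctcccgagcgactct
Nsdhl: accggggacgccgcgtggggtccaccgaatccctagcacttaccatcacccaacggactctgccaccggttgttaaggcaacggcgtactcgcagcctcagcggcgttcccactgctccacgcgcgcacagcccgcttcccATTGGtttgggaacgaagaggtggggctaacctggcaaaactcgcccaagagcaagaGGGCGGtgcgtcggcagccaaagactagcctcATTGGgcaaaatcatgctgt
Cyp51: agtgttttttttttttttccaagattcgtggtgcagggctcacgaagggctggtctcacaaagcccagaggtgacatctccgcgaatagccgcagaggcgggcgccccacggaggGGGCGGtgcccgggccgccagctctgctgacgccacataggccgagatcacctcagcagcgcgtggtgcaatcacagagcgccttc
Insig1: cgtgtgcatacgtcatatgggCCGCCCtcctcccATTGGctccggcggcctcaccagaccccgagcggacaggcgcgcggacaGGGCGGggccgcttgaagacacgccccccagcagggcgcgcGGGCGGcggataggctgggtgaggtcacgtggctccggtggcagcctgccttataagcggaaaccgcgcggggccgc

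In these stretches the Hmgcs1 letters TCACCCCAC were the only match to the sterol regulatory element as spelled above. Other spellings were not searched, so a gene without a match may still hold such an element. No 2 matches overlapped. RefSeq windows of 300 bases (250 before the start and 50 after) were found for 24 of the 29 genes. CCAAT occurred in windows of 19 of 24 genes (79.2%), against 41.1% of 27025 genes with a window. The GC box occurred in 20 of 24 (83.3%), against 38.2% of all. The sterol regulatory element as spelled occurred in 1 of 24 (4.17%), Hmgcs1, against 1.44% of all. The 24 genes all passed the filter on low values, while the 27025 include genes that did not. Expressed genes alone were not used as a background. A match only describes these letters in this window.

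The libraries differed in ways that touch every gene. TPM scales each library to the same sum, and 1 transcript took 36.8% to 64.4% of it, while nuclear protein-coding genes together took 5.98% to 14.1%. Between 8465 and 11419 genes reached a TPM of 1 in a library. The 4 libraries under 9000 genes were all Akita vehicle samples, wild-type replicates 2 and 5 and knockout replicates 5 and 6, with nuclear protein-coding shares of 5.98% to 6.66%. The mean nuclear protein-coding share was 8.60% ± 2.02 (SD, n = 6) in Akita wild-type vehicle and 8.78% ± 2.65 (SD, n = 6) in Akita knockout vehicle, below the mean of every other group. It was 10.0% ± 1.55 (SD, n = 5) in non-diabetic wild-type vehicle. This share is a part of library TPM and not an amount of RNA, and why it differed was not tested. Slc5a1 read 0.814 to 4.29 TPM in the 25 wild-type libraries and 0 to 0.123 TPM in the 23 knockout libraries. All 10 early proximal tubule markers, Slc5a2 (which encodes SGLT2) among them, were detected in each group, with summed levels of 837 to 2039 TPM.

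Most of the 29 genes were expressed at a low to middling level, and each had TPM above 0 in at least 45 of 48 libraries. The highest mean was that of Nr1h2, which encodes LXR beta, at 32.1 ± 8.57 TPM (SD over 48 libraries, as in this paragraph). Cyp51, the demethylase of lanosterol, averaged 13.2 ± 7.09 TPM and Hmgcs1, the cytosolic HMG-CoA synthase, 9.73 ± 2.94 TPM. The lowest were Sc5d, a sterol desaturase, at 0.890 ± 0.423 TPM, Hsd17b7, a sterol ketone reductase, at 0.886 ± 0.543 TPM, and Pmvk, the phosphomevalonate kinase, at 0.785 ± 0.538 TPM. Pmvk was listed at 0 in 3 libraries and Fdps at 0 in 1. TPM is per transcript length, so levels can be set beside each other, but only roughly. How evenly different genes were recovered was not tested. Apart from the gap below Nr1h2, neighbours in the order of means differed by less than the larger of their SDs.

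Among the 8 early enzymes, Hmgcs1 stood highest. Acat2, the cytosolic thiolase, averaged 6.15 ± 1.82 TPM and Mvd, the mevalonate diphosphate decarboxylase, 5.05 ± 1.58 TPM. Acat2 lies beside its close paralog Acat3 on chromosome 17, so reads could be divided between them and its level is uncertain. The isomerase Idi1 stood at 2.47 ± 1.20 TPM, geranylgeranyl diphosphate synthase (Ggps1) at 2.30 ± 1.18 TPM, farnesyl diphosphate synthase (Fdps) at 1.68 ± 0.851 TPM, and mevalonate kinase (Mvk) at 1.29 ± 0.601 TPM. Within this role the highest mean was thus several times the lowest.

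Of the 11 later enzymes, Cyp51 stood above the rest. The sterol isomerase Ebp averaged 5.11 ± 1.54 TPM, Nsdhl, a dehydrogenase in the removal of methyl groups from the sterol ring, 5.03 ± 1.76 TPM, and squalene epoxidase (Sqle) 3.81 ± 1.24 TPM. Lanosterol synthase (Lss) averaged 2.48 ± 1.53 TPM, the methyl sterol oxidase Msmo1 1.72 ± 0.704 TPM, and the sterol reductase Tm7sf2 1.49 ± 0.822 TPM. Dhcr7, the reductase of the last step of cholesterol synthesis, averaged 1.20 ± 0.582 TPM, and squalene synthase (Fdft1) 1.12 ± 0.780 TPM.

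The control genes were more even. Srebf2, which encodes SREBP2, averaged 8.51 ± 2.73 TPM and its escort Scap 7.80 ± 2.20 TPM. The retention factors Insig1 and Insig2 averaged 3.35 ± 1.47 and 2.02 ± 1.25 TPM. Of the transport genes, the sterol carrier Stard4 averaged 4.79 ± 1.99 TPM, the cholesterol exporter Abca1 2.55 ± 1.20 TPM, and the lysosomal cholesterol proteins Npc2 and Npc1 2.53 ± 0.857 and 1.80 ± 0.677 TPM. Nr1h3, which encodes LXR alpha, averaged 6.06 ± 1.60 TPM, below Nr1h2 in mean level.

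**Figure D1:**
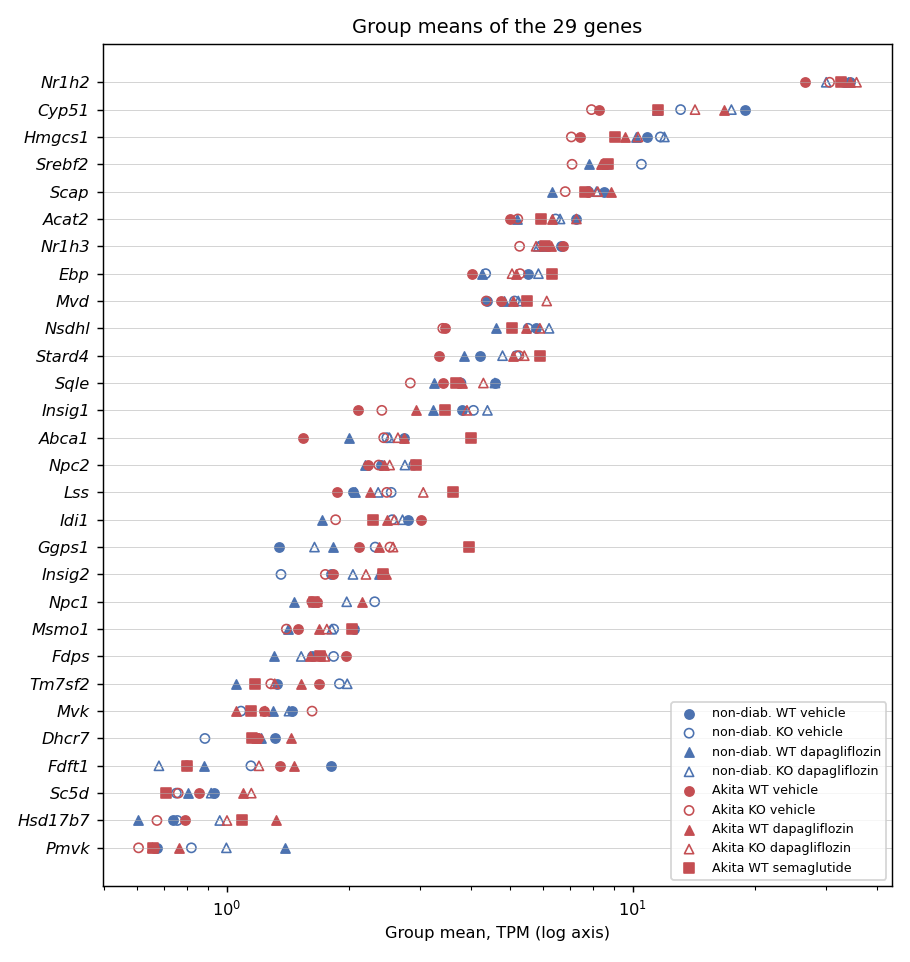
Mean TPM of each of the 29 genes (rows) in each of the 9 groups (symbols), on a log axis. Nr1h2 is highest at 32.1 TPM and Pmvk lowest at 0.785 TPM, and for many genes the red circles of Akita vehicle lie at the left of their row.

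By group, 7 of the 29 genes had their lowest mean in Akita wild-type vehicle, 9 in Akita knockout vehicle and 7 in non-diabetic wild-type dapagliflozin. These groups also had the 3 lowest mean nuclear protein-coding shares of the 9, the last at 8.89% ± 2.28 (SD, n = 4). The highest mean fell in the semaglutide group for 6 genes. The ratio of the highest to the lowest group mean ran from 1.28 for Nr1h3 to 2.94 for Ggps1. It was 2.39 for Cyp51, 1.83 for Nsdhl and 1.70 for Hmgcs1.

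Diabetes was read from Akita against non-diabetic vehicle tubules. No member was called at an adjusted p under 0.05 by limma in either genotype or in the average of both. The lowest values were those of Nsdhl, Hmgcs1, Cyp51 and Insig1. Nsdhl read 4.93, 5.53, 5.77, 5.90 and 6.78 TPM in non-diabetic wild-type vehicle, against 1.77, 3.30 and 5.19 TPM (lowest, median and highest of 6) in Akita wild-type vehicle. It read 3.97, 4.06, 4.91, 5.80 and 8.89 TPM in non-diabetic knockout vehicle and 2.12, 3.19 and 5.57 TPM (lowest, median and highest of 6) in Akita knockout vehicle. Both pairs of groups overlapped, and 11 of 12 Akita libraries lay below the median of their non-diabetic group.

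Hmgcs1 read 7.48, 9.98, 10.5, 11.9 and 14.2 TPM in non-diabetic wild-type vehicle and 4.31, 7.70 and 10.2 TPM (lowest, median and highest of 6) in Akita wild-type vehicle. In the knockout the values were 7.71, 10.2, 11.2, 14.2 and 15.2 TPM without diabetes and 3.66, 6.28 and 11.4 TPM (lowest, median and highest of 6) with it. Again 11 of 12 Akita libraries lay below their reference median, and the groups overlapped in both genotypes.

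Cyp51 read 7.49, 16.9, 21.7, 22.6 and 25.9 TPM in non-diabetic wild-type vehicle and 2.99, 9.71 and 11.8 TPM (lowest, median and highest of 6) in Akita wild-type vehicle. In the knockout it read 6.11, 8.31, 13.4, 15.1 and 22.7 TPM without diabetes and 3.92, 6.49 and 17.4 TPM (lowest, median and highest of 6) with it. Here too 11 of 12 Akita libraries were below the reference median, with 1 knockout library at 17.4 TPM well above its group.

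Insig1 read 2.40, 3.21, 4.11, 4.27 and 4.97 TPM in non-diabetic wild-type vehicle and 1.41, 2.02 and 3.14 TPM (lowest, median and highest of 6) in Akita wild-type vehicle. In the knockout it read 1.66, 3.39, 3.44, 5.45 and 6.32 TPM without diabetes and 1.20, 2.13 and 4.01 TPM (lowest, median and highest of 6) with it. Of 12 Akita libraries 11 were below the reference median, and the groups overlapped. The same 12 libraries enter this count for each gene. What share of all tested genes has such a count was not computed.

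Fold changes are given as log2 differences of TPM + 1, a scale that understates the change of low genes. Averaged over genotypes, the difference was -0.62 ± 0.165 (SE) for Nsdhl with an adjusted p of 0.0606 by limma. It was -0.60 ± 0.16 (SE) for Hmgcs1 with an adjusted p of 0.0611, and -0.90 ± 0.28 (SE) for Cyp51 with an adjusted p of 0.105, both by limma. Insig1 stood at -0.58 and Acat2 at -0.40. Called genes made up 0.557% of the 12742 tested, and no member was among them. At an unadjusted p under 0.05, 5 of 29 members were lower, the 5 just named, against 18.1% of all genes, and no member was higher. The median member difference was -0.18, and that of all tested genes -0.20, so the members as a list did not sit below the other genes.

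By role, 10 of 11 later enzymes, 5 of 8 early enzymes, 3 of 4 control genes and 6 of 6 transport genes were lower in Akita. Their medians were -0.18, -0.08, -0.25 and -0.19, beside -0.20 for all tested genes. Sqle stood at -0.32, Msmo1 at -0.31, Srebf2 at -0.30 and Fdft1 at -0.25. Abca1, Nr1h2, Stard4, Npc2 and Npc1 lay between -0.27 and -0.16, and Nr1h3 at -0.10. The 5 genes above 0 were Ggps1 (0.20), Mvk (0.08), Fdps (0.06), Dhcr7 (0.05) and Insig2 (0.02). None of these differences passed the test.

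Within the wild type the 3 members of smallest p were Nsdhl at -0.66 ± 0.23, Cyp51 at -1.12 ± 0.40 and Insig1 at -0.62 ± 0.28 (log2 ± SE), with limma adjusted p of 0.470, 0.472 and 0.597. Of all tested genes 0.0235% were called. At an unadjusted p under 0.05, 5 members were lower, against 7.01% of all genes. Within the knockout they were Hmgcs1 at -0.71 ± 0.23, Nsdhl at -0.57 ± 0.23 and Srebf2 at -0.57 ± 0.26, with limma adjusted p of 0.254, 0.300 and 0.317. No gene of the whole table was called there (0%), and 3 members, all lower, reached an unadjusted p under 0.05, against 14.4% of all genes in either direction. The interaction of diabetes with the knockout called no gene (0%). No member reached an unadjusted p under 0.05 in it (3.19% of all genes did), and the smallest p was that of Ebp, at 0.63 ± 0.33 (log2 ± SE) with a limma adjusted p of 1.

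**Figure D2:**
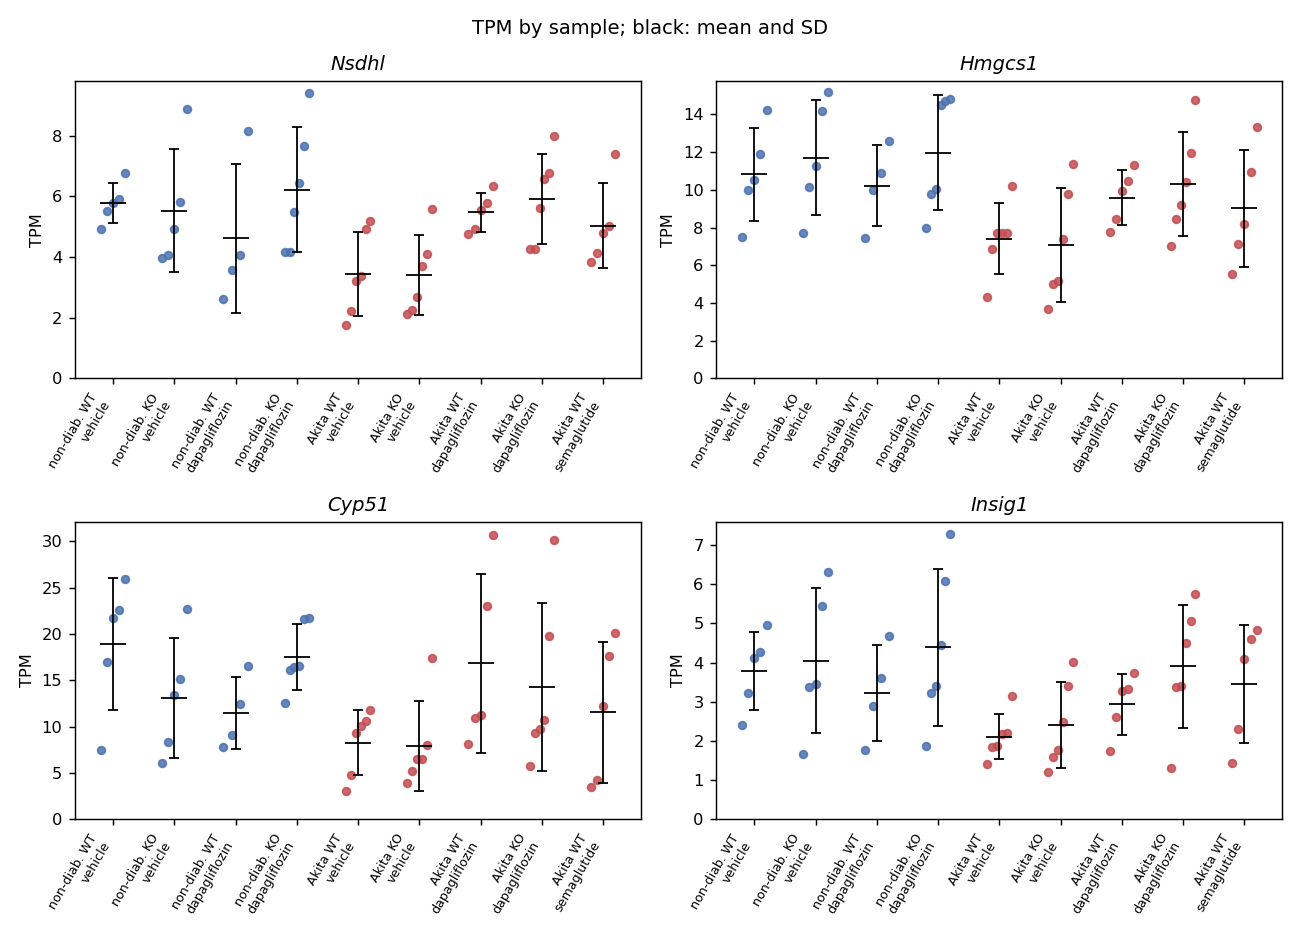
TPM of Nsdhl, Hmgcs1, Cyp51 and Insig1 in every library (points) by group, with mean and SD in black; blue is non-diabetic and red Akita. In both Akita vehicle groups the points sit low, with Nsdhl means of 3.45 and 3.41 TPM, and the groups overlap with the others.

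For Nsdhl the 4 Akita vehicle libraries with the fewest genes read 1.77, 2.12, 2.67 and 3.22 TPM, and for Hmgcs1 4.31, 4.99, 5.16 and 6.87 TPM, each among the lowest 3 of its group of 6. This was not so for every gene: knockout replicate 6 ranked 4 of 6 from the lowest for Cyp51 (6.54 TPM), and wild-type replicate 2 ranked 5 of 6 for Insig1 (2.21 TPM). Without them the averaged difference was -0.46 for Nsdhl, -0.43 for Hmgcs1, -0.63 for Cyp51 and -0.48 for Insig1, with limma adjusted p of 0.803 to 0.998. When TPM was rescaled so that nuclear protein-coding genes summed to the same in every library, the differences were -0.40 for Nsdhl, -0.35 for Hmgcs1, -0.65 for Cyp51 and -0.37 for Insig1, with limma adjusted p of 0.206 to 0.411. The median of all genes then stood at 0.00 and that of the members at 0.02. Each of the 4 genes stayed below 0 under every alternative scaling.

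Markers of the late (S3) proximal tubule were lower as well. All 7 of 7 lay lower in Akita vehicle, and 2, Slc7a13 at -0.86 and Slco1a1 at -1.14 (log2), were called by limma with adjusted p of 0.0488 and 0.0255. With the genotypes averaged, all tested genes leaned lower too, with a median of -0.20. Of all tested genes 18.1% were lower at an unadjusted p under 0.05, and 0.557% were called. The summed level of the S3 markers was 101.3 to 194 TPM in non-diabetic wild-type vehicle, 99.2 to 175 TPM in non-diabetic knockout vehicle, 44.4 to 162 TPM in Akita wild-type vehicle and 64.6 to 171 TPM in Akita knockout vehicle. Rescaled to equal nuclear protein-coding shares, it averaged 152 ± 32.5 (SD) in non-diabetic and 93.9 ± 22.3 in Akita wild-type vehicle. In the knockout these means were 129 ± 26.5 and 111 ± 19.3. No S3 marker was at 0 throughout a group. The part of these cells in the member differences was not tested. The other lists of cell types had 0 genes called in this comparison, with dapagliflozin in Akita and with semaglutide. Their summed levels over all libraries were 10.5 to 147 TPM for the thick ascending limb, 11.6 to 255 TPM for distal tubule and collecting duct, 1.62 to 23.7 TPM for podocytes, 17.1 to 87.9 TPM for endothelium, 4.25 to 180 TPM for immune cells, 2.00 to 46.3 TPM for stroma and 0 to 20.1 TPM for blood. The thick ascending limb averaged 82.9 ± 44.3 TPM (SD) in non-diabetic and 39.2 ± 34.4 TPM in Akita wild-type vehicle. In the knockout these were 45.9 ± 12.2 and 54.7 ± 47.4 TPM. Immune cells averaged 38.6 ± 46.8 and 15.4 ± 5.80 TPM in the wild type. In the knockout they averaged 51.7 ± 72.3 and 23.2 ± 23.4 TPM. Podocyte and stroma sums were higher in Akita vehicle in the wild type. The part of these cells was not tested either.

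Dapagliflozin in Akita tubules was the comparison with the only call. Averaged over genotypes, Nsdhl was higher by 0.63 ± 0.16 on the log2 scale (SE), a ratio of 1.55 of TPM + 1, with a limma adjusted p of 0.0419. It read 4.76, 4.93, 5.56, 5.77 and 6.34 TPM in Akita wild-type dapagliflozin and 4.25, 6.10 and 7.98 TPM (lowest, median and highest of 6) in Akita knockout dapagliflozin. The Akita vehicle values are those given above, and diabetes and dapagliflozin share these control samples. All 11 treated libraries lay above the median of their vehicle group, and the groups overlapped in both genotypes. Called genes made up 0.816% of all tested.

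The Nsdhl call depended on the processing. It did not hold when libraries were scaled by the median of ratios (0.44, adjusted p 0.122), with rescaling to nuclear protein-coding genes (0.42, adjusted p 0.131), and without the 4 libraries of fewest genes (0.47, adjusted p 0.701), all by limma. Leaving out 1 of the 23 libraries at a time ended the call in 13 fits, with limma adjusted p of 0.0166 to 0.105 over all 23. These libraries were Akita wild-type vehicle replicates 2, 4, 5 and 6 (adjusted p 0.104, 0.0615, 0.0790 and 0.0718), and Akita knockout vehicle replicates 4, 5 and 6 (0.0944, 0.0863 and 0.105). The treated ones were wild-type dapagliflozin replicates 2, 4, 5 and 6 (0.0616, 0.0731, 0.0642 and 0.0929) and knockout dapagliflozin replicates 5 and 6 (0.0976 and 0.0759). The difference itself stayed between 0.57 and 0.70 in those fits.

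The other members that were low in Akita vehicle were higher with dapagliflozin but were not called. Cyp51 read 8.08, 10.96, 11.3, 23.0 and 30.7 TPM in wild-type dapagliflozin and 5.78, 10.2 and 30.1 TPM (lowest, median and highest of 6) in knockout dapagliflozin. The averaged Cyp51 difference was 0.81, with 9 of 11 treated libraries above their reference median. Hmgcs1 read 7.77, 8.44, 9.93, 10.4 and 11.3 TPM in wild-type dapagliflozin and 7.02, 9.81 and 14.8 TPM (lowest, median and highest of 6) in knockout dapagliflozin. Its averaged difference was 0.44, with 11 of 11 libraries above their reference median. Here too the share of all tested genes with such a count was not computed.

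Insig1 read 1.75, 2.60, 3.27, 3.32 and 3.72 TPM in wild-type dapagliflozin and 1.32, 3.95 and 5.76 TPM (lowest, median and highest of 6) in knockout dapagliflozin, an averaged difference of 0.42. Acat2 stood at 0.39. In each case the groups overlapped. Of the 29 members 27 were higher and 2, Mvk at -0.12 and Fdps at -0.05, lower. At an unadjusted p under 0.05, 5 members were higher, against 16.8% of all genes. The member median of 0.24 compares with 0.17 for all genes. With nuclear protein-coding rescaling it was 0.01, against -0.02 for all.

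By role, 11 of 11 later enzymes, 6 of 8 early enzymes, 4 of 4 control genes and 6 of 6 transport genes were higher. Their medians were 0.24, 0.10, 0.26 and 0.22, beside 0.17 for all tested genes. Stard4 stood at 0.33, Hsd17b7 at 0.30, Sqle, Abca1 and Nr1h2 at 0.29 each, Mvd at 0.28 and Insig2 at 0.28. Lss, Sc5d and Scap lay between 0.24 and 0.26, and Srebf2 stood at 0.14. S3 markers were higher in 7 of 7, with 0 called and 5 at an unadjusted p under 0.05, against 16.8% of all genes. Their summed level was 88.7 to 210 TPM in Akita wild-type dapagliflozin and 82.4 to 194 TPM in Akita knockout dapagliflozin. Their part in the member differences was not tested.

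**Figure D3:**
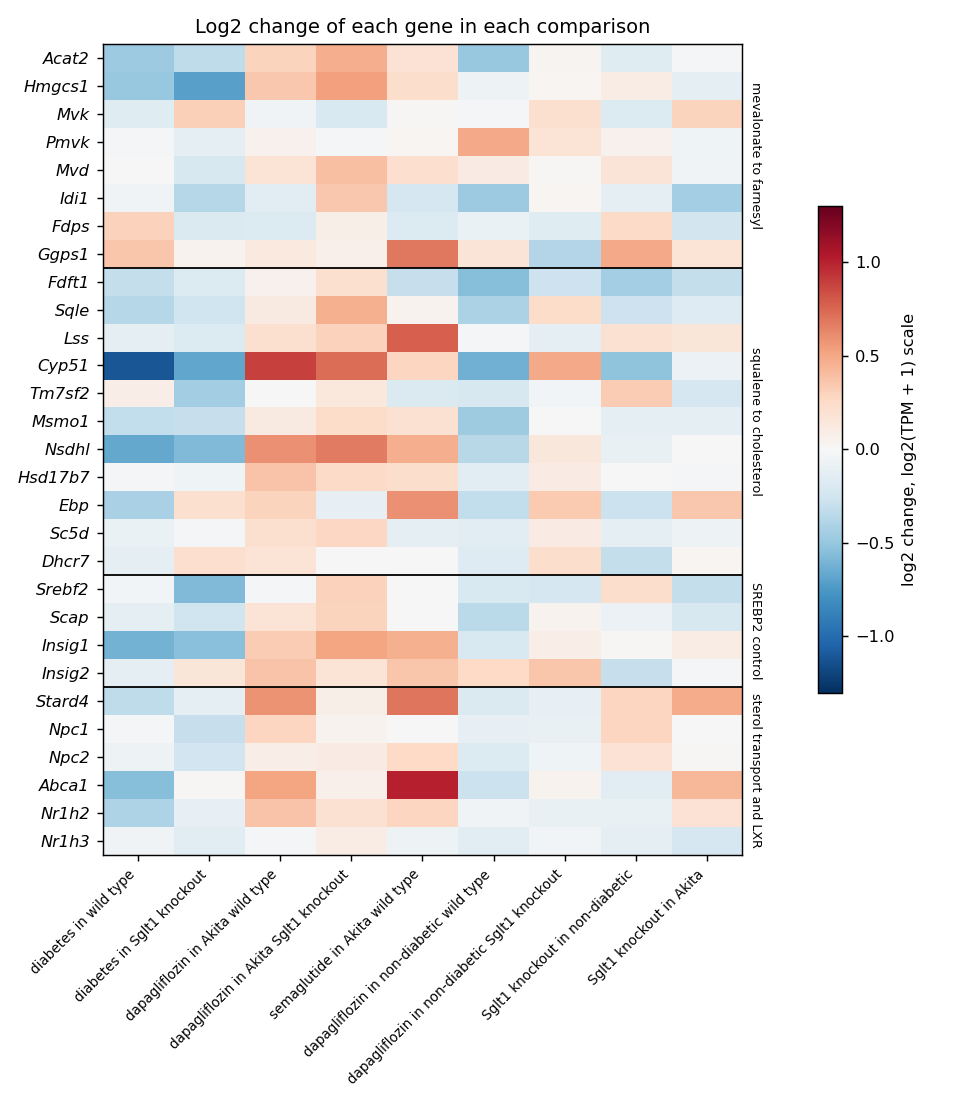
Log2 difference of TPM + 1 for each gene (rows, by role) in 9 comparisons (columns), blue lower and red higher. Nsdhl, Cyp51, Hmgcs1 and Insig1 are blue in both diabetes columns and red in both Akita dapagliflozin columns, which share the Akita vehicle samples.

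Within the Akita wild type, dapagliflozin called no gene of the table (0%). Nsdhl stood at 0.60 ± 0.23, Cyp51 at 0.89 ± 0.40 and Stard4 at 0.58 ± 0.31 (log2 ± SE), with limma adjusted p of 0.383, 0.443 and 0.539. At an unadjusted p under 0.05, 2 members were higher, against 9.68% of all genes. Within the Akita knockout it also called none (0%). Nsdhl stood at 0.67 ± 0.22, Hmgcs1 at 0.54 ± 0.22 and Acat2 at 0.48 ± 0.22 (log2 ± SE), with limma adjusted p of 0.643, 0.648 and 0.654. There 4 members were higher at an unadjusted p under 0.05, against 6.96% of all genes.

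Akita knockout with dapagliflozin was also set against Akita wild-type vehicle, where both Sglt1 and SGLT2 are blocked on 1 side and neither on the other. Nsdhl stood at 0.67 ± 0.22, Insig1 at 0.60 ± 0.26 and Acat2 at 0.46 ± 0.22 (log2 ± SE), with limma adjusted p of 0.259, 0.410 and 0.448. No member was called, against 0.0628% of all genes. At an unadjusted p under 0.05, 3 members were higher, against 9.75% of all. Over the 29 members 22 were higher, with a median of 0.21 beside 0.16 for all genes.

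In non-diabetic tubules dapagliflozin gave no such pattern. Averaged over genotypes it called no gene (0%), and the members had a median of -0.09 beside -0.10 for all genes. Nsdhl stood at -0.10, Cyp51 at -0.07, Hmgcs1 at -0.02 and Insig1 at -0.06. The smallest p were those of Fdft1 at -0.41 ± 0.20, Pmvk at 0.33 ± 0.18 and Acat2 at -0.23 ± 0.17 (log2 ± SE), each with a limma adjusted p of 0.979. Fdft1 was the only member lower at an unadjusted p under 0.05, against 3.18% of all genes.

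In the non-diabetic wild type 25 of 29 members were lower and none was called (0% of all genes). All genes leaned lower too, with 3.34% lower and 0.714% higher at an unadjusted p under 0.05. No member reached an unadjusted p under 0.05 (4.05% of all genes did). Acat2 stood at -0.50 ± 0.25, Fdft1 at -0.55 ± 0.30 and Pmvk at 0.49 ± 0.27 (log2 ± SE), with a limma adjusted p of 0.981 each. Idi1 read 2.11, 2.42, 2.69, 3.30 and 3.47 TPM with vehicle and 1.38, 1.78, 1.82 and 1.88 TPM with dapagliflozin. These 2 groups did not overlap, and the Idi1 difference of -0.47 was not called. The share of all tested genes without overlap was not computed. Rescaled to equal nuclear protein-coding shares, Idi1 ran from 1.68 to 3.35 with vehicle and from 1.45 to 2.48 with dapagliflozin, so the groups then overlapped. In the non-diabetic knockout 18 of 29 members were higher and none was called (0.00785% of all genes), and no member reached an unadjusted p under 0.05 (3.88% of all). Ebp stood at 0.34 ± 0.23, Ggps1 at -0.38 ± 0.28 and Cyp51 at 0.49 ± 0.40 (log2 ± SE), with a limma adjusted p of 1 each.

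The difference between the effect of dapagliflozin in Akita and in non-diabetic tubules was tested as an interaction. Averaged over genotypes it called no gene (0%). Nsdhl stood at 0.74 ± 0.24, Acat2 at 0.62 ± 0.23 and Cyp51 at 0.87 ± 0.41 (log2 ± SE), with limma adjusted p of 0.269, 0.279 and 0.327. These 3 were the members higher at an unadjusted p under 0.05, against 14.4% of all genes. The member median was 0.33 beside 0.27 for all genes. In the wild type it called none (0%), with Nsdhl at 0.95 ± 0.35, Cyp51 at 1.52 ± 0.60 and Acat2 at 0.79 ± 0.34, and limma adjusted p of 0.331, 0.355 and 0.401. The same 3 genes were higher at an unadjusted p under 0.05, against 10.9% of all. In the knockout it called none (0%), and no member reached an unadjusted p under 0.05 (4.98% of all genes did). Nsdhl stood at 0.53 ± 0.32, Hmgcs1 at 0.51 ± 0.32 and Srebf2 at 0.52 ± 0.36, with a limma adjusted p of 0.876 each. A difference between the effects was therefore not shown for any member.

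**Figure D4:**
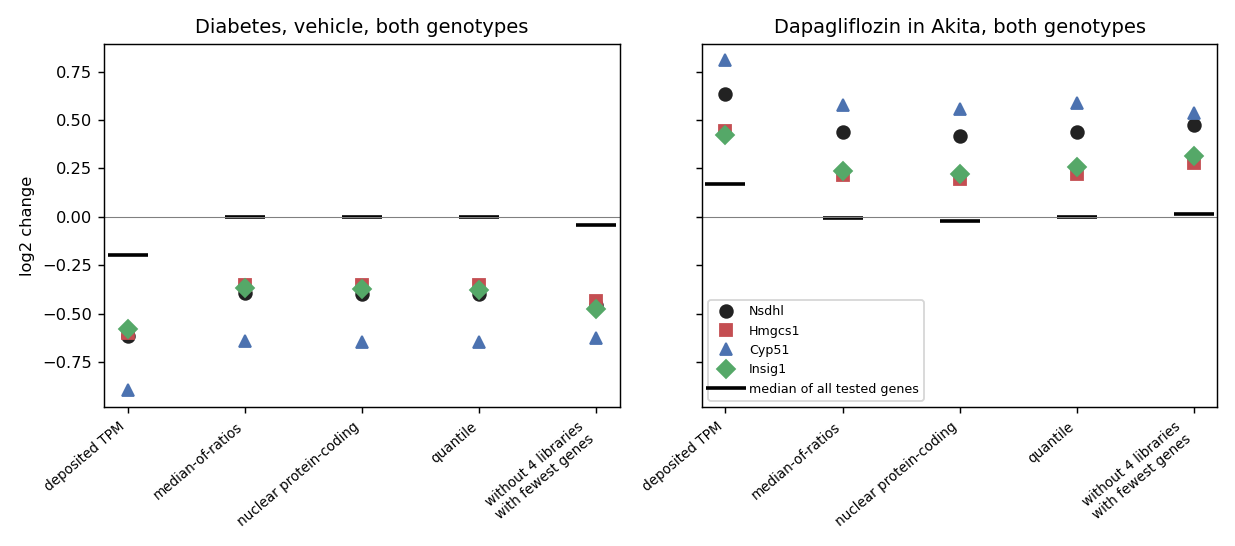
Log2 difference of 4 genes (coloured symbols) and the median of all tested genes (black bars) under 5 treatments of the data, for diabetes (left) and dapagliflozin in Akita (right). The 4 genes stay below 0 on the left and above 0 on the right, and move closer to 0 together with the median of all genes, which goes from -0.20 to 0.00 on the left with rescaling.

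Semaglutide in Akita wild-type tubules called no gene (0%). The member of smallest p was Abca1. It read 2.89, 3.02, 4.49, 4.78 and 4.80 TPM with semaglutide, and 0.722, 1.42 and 2.73 TPM (lowest, median and highest of 6) with vehicle. Every semaglutide library was thus above every vehicle library, and Akita wild-type dapagliflozin overlapped both at 1.22, 1.34, 2.82, 3.49 and 4.77 TPM. How large a share of all tested genes separated in this way was not computed. Abca1 was picked as the member of smallest p, and the median of all tested genes was also higher, by 0.13. The difference was 1.01 ± 0.29 (log2 ± SE), with an unadjusted p of 0.00118 and a limma adjusted p of 0.777.

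The labels number the captures, and the 5 semaglutide samples carry the numbers 88 to 99, while Akita wild-type vehicle runs from 1 to 82. With the capture number as a covariate the Abca1 difference was 0.54. Capture order and treatment cannot be told apart well here, since no semaglutide sample has a low number. With nuclear protein-coding rescaling the difference was 0.89, with a limma adjusted p of 0.276.

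Ebp read 4.69, 6.02, 6.42, 6.81 and 7.65 TPM with semaglutide and 2.66, 3.36 and 7.21 TPM (lowest, median and highest of 6) with vehicle. Its difference was 0.59 ± 0.23 with a limma adjusted p of 0.836. Ggps1 read 2.39, 2.80, 3.50, 5.32 and 5.74 TPM with semaglutide and 0.645, 1.90 and 3.63 TPM with vehicle, a difference of 0.68 ± 0.28 with a limma adjusted p of 0.845. Both genes overlapped between groups.

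Lss read 2.91, 3.15, 3.43, 4.11 and 4.45 TPM with semaglutide, in a narrow band, and 0.653, 1.41 and 3.73 TPM with vehicle, a difference of 0.78. Stard4 stood at 0.70 and Nsdhl at 0.47. In all, 6 members were higher at an unadjusted p under 0.05, against 5.20% of all genes. Of the 29, 22 were higher, with a median of 0.20 beside 0.13 for all genes. S3 markers were higher in 7 of 7 with 0 called, with a summed level of 69.3 to 168 TPM in the semaglutide group. Their part was not tested.

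Set against dapagliflozin in the same Akita wild type, semaglutide called no gene (0%). No member reached an unadjusted p under 0.05 (2.61% of all genes did). Ggps1 stood at 0.55 ± 0.29, Abca1 at 0.50 ± 0.31 and Sc5d at -0.34 ± 0.22 (log2 ± SE), with a limma adjusted p of 1 each. Cyp51 stood at -0.61 and Lss at 0.57. At this spread the drugs were not shown to differ in any member.

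The Sglt1 knockout moved no member past the test. In non-diabetic vehicle tubules 0.0235% of all genes were called and 0 members. Ggps1 stood at 0.49 ± 0.29, Fdft1 at -0.44 ± 0.28 and Dhcr7 at -0.31 ± 0.25 (log2 ± SE), with a limma adjusted p of 0.981 each. No member reached an unadjusted p under 0.05, against 4.61% of all genes. In Akita vehicle tubules 0.0157% of all genes were called and 0 members, with Stard4 at 0.49 ± 0.29, Idi1 at -0.44 ± 0.27 and Ebp at 0.35 ± 0.22, and a limma adjusted p of 1 each. No member reached an unadjusted p under 0.05 there either, against 1.95% of all.

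Averaged over the 4 settings of diabetes and dapagliflozin, the knockout called 0.0235% of all genes and 0 members. Fdft1 stood at -0.27 ± 0.14, Stard4 at 0.28 ± 0.16 and Ggps1 at 0.18 ± 0.14 (log2 ± SE), with a limma adjusted p of 0.921 each. No member reached an unadjusted p under 0.05, against 4.91% of all genes. The member median was 0.05 beside 0.07 for all genes.

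Summed over the 29 genes, the level was lowest in Akita vehicle. The sum was 117 ± 32.1 TPM (SD, n = 6) in Akita wild-type vehicle and 118 ± 37.7 TPM (SD, n = 6) in Akita knockout vehicle. It was 150 ± 19.4 TPM (SD, n = 5) in non-diabetic wild-type vehicle and 144 ± 31.6 TPM (SD, n = 5) in non-diabetic knockout vehicle. With dapagliflozin it was 147 ± 25.01 TPM (SD, n = 5) in the Akita wild type and 149 ± 37.5 TPM (SD, n = 6) in the Akita knockout. With semaglutide it was 143 ± 40.2 TPM (SD, n = 5). Once rescaled to equal nuclear protein-coding shares the group means ran from 130 to 147, with Akita wild-type and knockout vehicle at 132 ± 7.82 and 132 ± 9.79 (SD, n = 6 each). Non-diabetic wild-type vehicle stood at 147 ± 6.08 and non-diabetic knockout vehicle at 130 ± 7.58 (SD, n = 5 each). In the wild type the rescaled gap was smaller than the deposited one but larger beside its spread, which was smaller too. A sum is weighted to the highest genes, and Cyp51, whose rescaled means are given below, made up most of this gap. The rescaled member median for diabetes averaged over genotypes was 0.02. In the knockout the rescaled means differed by less than their SDs.

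**Figure D5:**
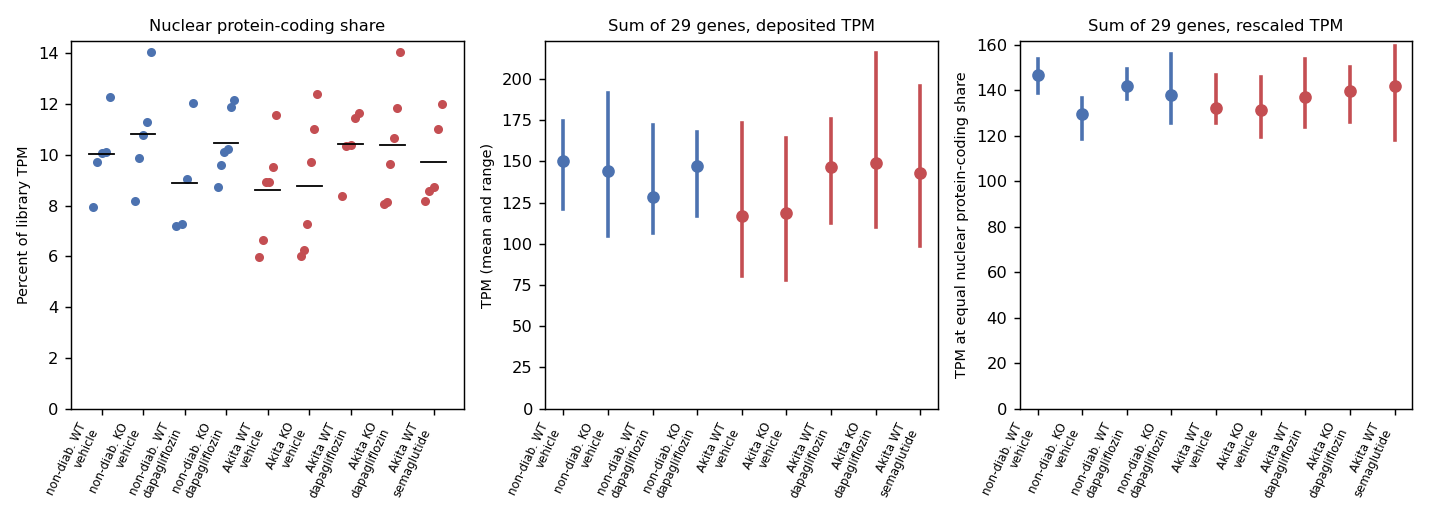
Left, share of library TPM in nuclear protein-coding genes (points, with group means); middle and right, sum of the 29 genes in deposited and in rescaled TPM (mean and range) for each group. The Akita vehicle groups are lowest in the left and middle panels, at means of 8.60% and 117 TPM in the wild type, and only non-diabetic knockout vehicle lies lower in the right panel, at 130 against 132 for both.

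Rescaled, Nsdhl averaged 3.91 ± 1.21 (SD, n = 6) in Akita wild-type vehicle, against 5.73 ± 0.967 (SD, n = 5) in non-diabetic wild-type vehicle and 5.20 ± 0.924 (SD, n = 5) in Akita wild-type dapagliflozin. In the knockout the 3 means were 3.80 ± 0.997 (SD, n = 6), 4.92 ± 0.966 (SD, n = 5) and 5.76 ± 1.77 (SD, n = 6). Cyp51 averaged 9.03 ± 2.58 in Akita wild-type vehicle, 18.02 ± 5.42 in non-diabetic wild-type vehicle and 15.4 ± 7.80 in Akita wild-type dapagliflozin on the same scale. Hmgcs1 averaged 8.43 ± 0.997, 10.96 ± 3.62 and 9.12 ± 1.94 in these 3 groups. In the wild type the order of the 3 groups was thus the same for all 3 genes, and for each gene the mean ± SD ranges of Akita vehicle and dapagliflozin overlapped.

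Other genes that handle sterols or isoprenoids were taken from 4 lists. Of 12 genes that process SREBP or degrade its partners, 12 were lower in Akita vehicle averaged over genotypes, with 0 called. All tested genes leaned the same way there, with a median of -0.20. At an unadjusted p under 0.05, 18.1% of all genes were lower and 0.416% higher. With dapagliflozin in Akita 10 of 12 were higher. Vcp, the segregase that extracts proteins for degradation, was called by limma at 0.53 ± 0.14 (log2 ± SE) with an adjusted p of 0.0467. The list had a median of 0.39 beside 0.17 for all genes, and 6 of 12 were higher at an unadjusted p under 0.05, against 16.8% of all genes, of which 0.816% were called. Without the 4 libraries of fewest genes no gene of the table was called with dapagliflozin in Akita, and 4 were in diabetes.

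Of 12 tested genes that use isoprenoids for prenylation, dolichol or ubiquinone, 12 were lower in Akita vehicle. Pdss1, which makes the side chain of ubiquinone, was called at -0.76 ± 0.18 with a limma adjusted p of 0.0397. With dapagliflozin in Akita Pdss1 stood at 0.65 with a limma adjusted p of 0.0571, and 0 of 12 were called. Of 22 tested genes of sterol uptake, storage and transport 21 were lower in Akita vehicle. Osbpl9, a lipid transfer protein, was called at -0.72 ± 0.18 with a limma adjusted p of 0.0488. Of all tested genes 0.557% were called in this comparison, and their median was -0.20. With dapagliflozin 19 of 22 were higher and 0 called, the smallest p being those of Osbp at 0.38 and Lamp2 at 0.49. The median of all genes was 0.17 there. Of 4 tested enzymes of oxysterols and bile acids 3 were lower in Akita vehicle with 0 called, led by Cyp7b1 at -0.62 and Hsd3b7 at -0.50. Semaglutide called 0 genes of these 4 lists, with Cyp7b1 at 0.94, Srebf1 at 0.70, Cubn at 0.63 and Pggt1b at 0.60. Cyp7b1 is also 1 of the S3 markers.

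Finally, the members were compared within groups, as log2(TPM + 1) less the group mean over 48 libraries. In deposited TPM the median correlation of the 406 member pairs was 0.32, with 97.04% of pairs above 0, beside a median of 0.25 and 86.97% for pairs of all tested genes. Rescaled, it was 0.04 with 60.3%, beside 0.01 with 52.4%. The highest deposited pair was Acat2 with Nsdhl at 0.71. All points of such a correlation share the scale of their library, and genes are not independent replicates.

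Tests were run for 10 pairs. Hmgcs1 correlated with Sqle at r = 0.47 (rho = 0.49, permutation p = 0.00054, adjusted over the 10 pairs 0.0021). It correlated with Insig1 at r = 0.47 (rho = 0.44, permutation p = 0.00085, adjusted 0.0021) and with Srebf2 at r = 0.47 (rho = 0.45, permutation p = 0.00078, adjusted 0.0021). Without the 2 libraries farthest from the median of Hmgcs1 these were 0.46, 0.47 and 0.51. Within the 24 lower capture numbers they were 0.57, 0.45 and 0.57, and within the 24 higher 0.37, 0.50 and 0.34.

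Abca1 correlated with Nr1h2 at r = 0.47 (rho = 0.44, permutation p = 0.00081, adjusted 0.0021), and at 0.50 and 0.36 in the lower and higher capture numbers. Of the 10 pairs 7 passed at an adjusted p under 0.05 in deposited TPM, and none of those 7 did after rescaling, where Hmgcs1 with Sqle stood at 0.26, with Insig1 at 0.17 and with Srebf2 at -0.10. These correlations therefore did not hold at equal nuclear protein-coding shares. Abca1 with Nr1h3 stood at -0.08 in deposited TPM and at -0.50 rescaled (rho = -0.46, permutation p = 0.0003, adjusted 0.003). It was -0.74 within the 24 lower capture numbers and 0.00 within the 24 higher, so it did not hold within both.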

How the data were processed

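RNA of laser-captured tubules was measured in 48 libraries of 9 groups. Per the labels' protocols, a stranded total RNA Pico kit was used on 0.5 ng of RNA, whose DV200 (the share of longer fragments) was above 30%. The authors deposited TPM, made with Salmon on GRCm38 per the submitters' processing notes, which also name MultiQC 1.8; no source used here gives the Salmon version or annotation. Outliers were removed according to the table's name, which does not say how, and 6 of 54 labelled samples were not analysed here. TPM keeps no depth, so depth is unknown.

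Genes with TPM of at least 1 in at least 5 libraries were tested as log2(TPM + 1) with limma 3.58.1 in R 4.3.3 (statmod 1.5.0), in a single fit of 9 groups with 39 residual degrees of freedom, moderated variances with trend and robust, two-sided, over 19 comparisons. P-values were adjusted by Benjamini-Hochberg over all 12742 genes of a comparison. An adjusted p under 0.05 counted as a call. Rescaling set the nuclear protein-coding sum, Lars2 left out, to 9.78% in every library. Permutation p-values of correlations used 100000 resamples, two-sided (scipy 1.17.1, Python 3.11.15). The script was tested on simulated data in which each gene varied on its own. Shifts shared by all genes of a library were not simulated, so that test does not cover them.

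The members and all lists were chosen with earlier results of these data known. All 29 members are named; full statistics are given for called members and, where none was called, for the 3 of smallest p. Other genes are named only from the pathway lists (called ones and the 2 of smallest p), the marker lists and Slc5a1. The result of 1 pathway gene that this rule would name is not reported here. Some names and values (Acat2 with Nsdhl, Idi1, Lss) were picked after their values were seen. Alternatives covered the pseudocount, the filter, the scaling, covariates, the samples fitted, the moderation and each library left out in turn.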

Additional observations from a re-analysis of the deposited data

Results flagged for a closer look

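Of 45 groups of 4 to 6 libraries examined for a value far from the others, over 5 genes, 1 stood apart. Cyp51 read 17.3898 TPM in Akita knockout vehicle replicate 3, the next highest library of that group 8.01 TPM, a gap of 0.696 of the group's range. About 1 in 20 such groups would be marked by chance. Without that library the averaged diabetes difference of Cyp51 was -1.01 (limma adjusted p 0.0423), and that of dapagliflozin in Akita 0.93 (limma adjusted p 0.0498). Of 174 pairs of a member and a contrast, 0 had every library of a group moving one way and every library of the other group the opposite way.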

How the results depend on the processing

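The count of members called by limma stayed at 0 in 17 of the 19 comparisons under every alternative run. For dapagliflozin in Akita averaged over genotypes it went from 1 to 0 without the filter, with median-of-ratios scaling, nuclear protein-coding rescaling or quantile normalization, with the capture number or the number of genes detected as a covariate, with only the groups compared in the fit, and without the 4 libraries under 9000 genes. It ranged from 0 to 2 when 1 library was left out. Nsdhl then had an adjusted p of 0.0839 without the filter, 0.120 with quantile normalization, 0.0528 with the capture number, 0.0968 with the genes detected and 0.0938 with only the groups compared. For diabetes averaged over genotypes the count went from 0 to 2 with the stricter filter of TPM at least 5 (Nsdhl and Hmgcs1, adjusted p 0.0421 and 0.0437), where fewer genes were tested, and ranged from 0 to 4 when 1 library was left out. It rose without Akita wild-type vehicle replicates 1 (2 members) and 3 (1), Akita knockout vehicle replicates 1 (1), 2 (2) and 3 (3), and non-diabetic knockout vehicle replicate 1 (4 members: Nsdhl, Hmgcs1, Cyp51 and Insig1). The cause was not tested. The number of genes called in all went from 104 to 0 without the 4 libraries for dapagliflozin in Akita. With median-of-ratios scaling the correlation of Hmgcs1 with Srebf2 turned to -0.081, of Abca1 with Nr1h2 to -0.030, of Npc1 with Npc2 to -0.156 and of Insig1 with Insig2 to -0.163. With nuclear protein-coding rescaling Hmgcs1 with Srebf2 turned to -0.095, Npc1 with Npc2 to -0.160 and Insig1 with Insig2 to -0.131. No paired analysis was possible because no label links a sample of a group to a sample of another. The replicate numbers used here count samples within a group. TPM keeps no depth, so no limit of detection could be given.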
